A study of Mus musculus with 2 samples.

Results

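EP300 peaks at bidirectional protein-coding promoters were examined in the heart of newborn mice. EP300 (also called p300) is a lysine acetyltransferase that transcription factors recruit to chromatin, where it acetylates histones and other proteins. Its position was measured by chromatin immunoprecipitation followed by sequencing (ChIP-seq). A member was a peak of the pooled reproducible ("optimal") list on chromosomes 1 to 19 whose summit, the base of highest signal, lay within 1 kb of the transcription start sites (TSSs) of at least 2 protein-coding genes on opposite strands. The rule used positions only and no signal value. It found 744 member peaks, which is 13.0% of the 5739 promoter peaks and 4.33% of all 17169 peaks on these chromosomes. Neighbouring calls share DNA, so summits within 1 kb were joined, and the 744 peaks form 556 loci, each described by its strongest peak. Of these loci, 384 held 1 member peak, 156 held 2 and 16 held 3.

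Both samples belong to 1 group: whole heart tissue of strain B6NCrl at postnatal day 0, precipitated with an antibody labelled EP300, with no treatment, transgene or other genotype named in the labels. There were 2 replicates, which carry the same biosample and donor identifiers, so the spread between them may be technical. Whole heart holds several cell types, and a stronger signal per cell and a larger share of cells with the signal cannot be told apart. The depth is unknown, since the files give no read counts. Intervals below are 95% Clopper-Pearson intervals that cover counting error only, and the tests compare positions of 1 pooled list, not animals.

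A bidirectional promoter is a stretch of DNA from which a pair of neighbouring genes is transcribed in opposite directions, head to head. In mammals such pairs are frequent among genes that most cells use, for DNA repair, mitochondrial function, ribosomes and histones, and many of them lie in CpG islands, which are regions rich in the dinucleotide CG that usually stay unmethylated. Pairs are written below with the minus-strand gene first and the plus-strand gene second. A pair is called divergent where the minus-strand TSS lies at the lower coordinate. The DNA between both TSSs then lies outside the transcripts that start there, but can lie within another transcript of either gene. A pair is called overlapping where the first bases of these transcripts run past each other.

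The DNA between the TSSs of divergent pairs was mostly short, at most 300 bp at 310 of 447 loci. The 6 sequences below are the whole DNA between the TSSs of the divergent member pairs of highest signal, taken among pairs at most 300 bp apart with no annotated exon in between. They are read from the plus strand of GRCm38 (mm10), 5′ to 3′, so the minus-strand gene starts just left of each and the plus-strand gene just right of it. Capitals mark matches, on either strand, to any of the 20 transcription factor motifs described further on.
Tepsin/Ndufaf8, chr11:120098732-120098927: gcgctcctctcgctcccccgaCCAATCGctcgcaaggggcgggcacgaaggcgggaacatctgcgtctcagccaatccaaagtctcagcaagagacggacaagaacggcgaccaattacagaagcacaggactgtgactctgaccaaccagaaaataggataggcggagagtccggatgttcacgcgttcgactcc
Cdc40/Wasf1, chr10:40883312-40883474: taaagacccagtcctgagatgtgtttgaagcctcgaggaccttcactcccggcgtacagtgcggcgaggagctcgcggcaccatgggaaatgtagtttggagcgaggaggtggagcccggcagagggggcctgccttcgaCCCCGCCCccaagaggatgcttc
Pdap1/Bud31, chr5:145140239-145140361: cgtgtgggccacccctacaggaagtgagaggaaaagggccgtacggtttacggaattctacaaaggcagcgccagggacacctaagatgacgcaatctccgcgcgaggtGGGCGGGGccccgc
Eftud2/Ccdc103, chr11:102880986-102881203: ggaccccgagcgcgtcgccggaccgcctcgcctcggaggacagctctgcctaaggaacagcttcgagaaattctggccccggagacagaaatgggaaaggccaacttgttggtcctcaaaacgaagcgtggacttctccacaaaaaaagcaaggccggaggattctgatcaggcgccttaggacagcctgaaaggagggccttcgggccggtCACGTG
Bckdha/Exosc5, chr7:25658982-25659163: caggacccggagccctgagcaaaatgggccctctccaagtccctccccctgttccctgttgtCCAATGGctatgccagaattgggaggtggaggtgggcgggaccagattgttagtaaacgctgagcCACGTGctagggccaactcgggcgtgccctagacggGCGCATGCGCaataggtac
Ormdl2/Sarnp, chr10:128821646-128821893: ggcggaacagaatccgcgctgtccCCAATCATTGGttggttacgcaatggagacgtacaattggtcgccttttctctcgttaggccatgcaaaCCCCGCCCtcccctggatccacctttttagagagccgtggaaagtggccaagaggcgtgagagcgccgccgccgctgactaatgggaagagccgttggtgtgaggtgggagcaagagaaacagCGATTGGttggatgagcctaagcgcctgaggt
All of them hold at least 1 match, but of different motifs. NF-Y matches, the CCAAT boxes bound by the trimer NF-Y, stand in Tepsin/Ndufaf8, Bckdha/Exosc5 and Ormdl2/Sarnp. SP/KLF matches, the GC boxes bound by zinc finger proteins, stand in Cdc40/Wasf1, Pdap1/Bud31 and Ormdl2/Sarnp. Eftud2/Ccdc103 and Bckdha/Exosc5 hold the palindromic E-box of the USF and MYC proteins. The latter pair also holds the palindrome of NRF1, a regulator of nuclear genes for mitochondrial proteins. The summit itself lay inside the printed DNA at Tepsin/Ndufaf8 (base 56 of 196), Eftud2/Ccdc103 (base 115 of 218) and Ormdl2/Sarnp (base 184 of 248). It lay to the left, inside the minus-strand gene, at Cdc40/Wasf1, Pdap1/Bud31 and Bckdha/Exosc5. The capitals are therefore not all sites near the summit. In the 200 bp around the summit, Pdap1/Bud31, Eftud2/Ccdc103 and Bckdha/Exosc5 held none of the 20 motifs, and Cdc40/Wasf1 held only a TATA box.

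A further pair of sequences was chosen after the values were seen, because each serves 2 subunits of 1 complex. Hadha and Hadhb encode the alpha and beta subunits of the mitochondrial trifunctional protein, which carries out the last steps of long-chain fatty acid oxidation, a main fuel pathway of heart muscle after birth. Hist1h2bf and Hist1h2ad encode core histones H2B and H2A.
Hadha/Hadhb, chr5:30155163-30155247: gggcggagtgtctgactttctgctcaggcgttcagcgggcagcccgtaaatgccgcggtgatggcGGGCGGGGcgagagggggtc
Hist1h2bf/Hist1h2ad, chr13:23574197-23574380: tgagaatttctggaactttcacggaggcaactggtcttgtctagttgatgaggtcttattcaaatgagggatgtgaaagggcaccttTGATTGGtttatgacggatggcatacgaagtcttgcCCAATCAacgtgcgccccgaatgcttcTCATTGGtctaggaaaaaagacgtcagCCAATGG
The 85 bp between Hadha and Hadhb held 1 SP/KLF match and 69.4% G and C. The 200 bp around the summit at Hadha/Hadhb held an RFX match and no SP/KLF match. The 184 bp between the histone genes held 4 NF-Y matches and 46.2% G and C.

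The strongest bidirectional locus was the Atp5f1/Wdr77 promoter on chromosome 3, with a signal of 238.1 in the pooled optimal list, 115.4 in replicate 1 and 117.8 in replicate 2. The signal is the authors' deposited value of a peak, whose formula is not given in the sources used, and serves here to order peaks of the same list. Values of the replicate and pooled lists stand side by side below, but their sizes are not compared between lists. Atp5f1 encodes a subunit of the stalk of mitochondrial ATP synthase, and Wdr77 encodes the partner of the arginine methyltransferase PRMT5. The summit at base 105959335 (peak chr3:105959188-105959506) lay 34 bp upstream of the nearest Wdr77 TSS and 764 bp inside Atp5f1, since these genes overlap by 730 bp. Among all peaks on chromosomes 1 to 19 it ranked 11th.

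Next came the divergent pair Taf6/Cnpy4 (chr5:138187181-138187457), with a signal of 216.6, made of a general transcription factor subunit and a canopy family gene. Its signal was 108.7 in replicate 1, rank 37 of that list, and 106.6 in replicate 2, rank 17. Its summit lay between the TSSs. Prr11/Ska2, a pair of cell division genes, had a pooled signal of 175.7. It had 115.2 in replicate 1, rank 29, and 62.0 in replicate 2, rank 117.

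The other loci described among the leading 10 had pooled signals from 137.6 to 149.8, each with a summit within 100 bp in both replicate lists. Tepsin/Ndufaf8, whose plus-strand gene encodes an assembly factor of respiratory complex I, had 149.8 in the pooled list, 76.3 in replicate 1 and 60.5 in replicate 2. Cdc40/Wasf1, a splicing factor and an actin regulator, had 145.7, with 68.7 in replicate 1 and 71.2 in replicate 2. Pdap1/Bud31 had 142.3, with 78.8 and 64.5, and Bud31 encodes another splicing protein. Dnajb4/Fubp1, a co-chaperone and a single-strand DNA binding protein, had 140.7, with 73.9 and 56.4. Styxl1/Mdh2, whose plus-strand gene encodes mitochondrial malate dehydrogenase, had 138.3, with 76.6 and 61.6. Eftud2/Ccdc103, whose minus-strand gene encodes a GTPase of the spliceosome, had 137.6, with 77.7 and 59.8. These loci were named because their signal was highest, so its size is a description and no test.

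**Figure D1:**
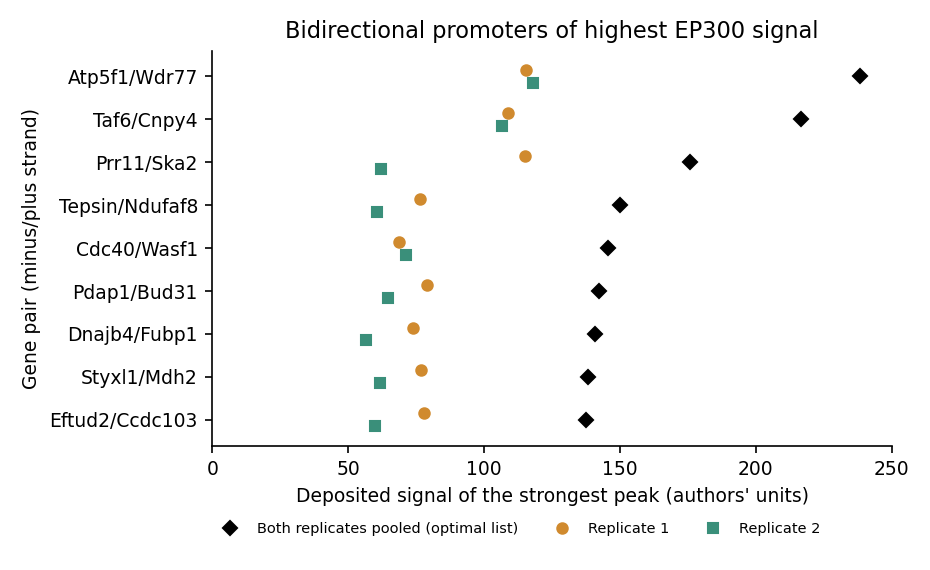
Deposited signal (authors' units, horizontal axis) of 9 of the 10 bidirectional loci of highest signal, with diamonds for the pooled optimal list, circles for replicate 1 and squares for replicate 2. Each list has its own scale, and within both replicate lists Atp5f1/Wdr77 stands highest of these loci (115.4 and 117.8).

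Across all 556 loci the signal ran from 7.89 at Gm45785/Ric8a to 238.1, with a median of 38.6 and quartiles of 28.2 and 54.5. The median was 35.1 at the 3678 loci of one-directional promoters, whose summits lie within 1 kb of protein-coding TSSs without meeting the rule. It was 33.7 at the 9362 distal loci, whose summits lie over 1 kb from any protein-coding TSS. Distal loci can therefore include promoters of non-coding genes and sites just past 1 kb. A signal above the median of all peaks (30.7) was found at 68.7% of bidirectional loci (382 of 556, interval 64.7 to 72.5%) and 62.1% of one-directional loci (2284 of 3678, 60.5 to 63.7%). This is an odds ratio of 1.34 (two-sided Fisher's exact test, adjusted p = 0.00341 over the 4 tests of shares). Among CpG-rich loci alone the odds ratio was 1.28 and missed the threshold of 0.05 (exact test, adjusted p = 0.0622).

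Divergent pairs made up 447 of the 556 loci (80.4%), with a median of 187 bp between the TSSs nearest to the summit (range 10 to 1521 bp). At 120 of them the TSSs were at most 100 bp apart and at 310 at most 300 bp. The other 109 loci were overlapping pairs, with a median overlap of 228 bp (0 to 923 bp). With 1 TSS per gene the split was 344 divergent and 189 overlapping of 533 loci, so it depends on the annotated starts used. At the 447 divergent loci the strongest summit lay between the TSSs in 244 cases (54.6%, interval 49.8 to 59.3%). It lay inside the minus-strand gene in 98 and inside the plus-strand gene in 105. The DNA between these TSSs was 15.2% of the bases that the rule admits at these loci. Counted over all member peaks of divergent pairs, 294 of 602 summits (48.8%) lay between the TSSs. That share was 36.9% when 1 TSS per gene was used, so it depends on which annotated starts count.

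Summits were close to a start. The nearest TSS lay a median of 74 bp away at bidirectional loci and 121 bp away at one-directional loci, and 88.8% against 67.2% lay within 200 bp. A bidirectional locus has TSSs on both strands near by, which by itself shortens this distance, so no test was made. The summit was nearer to the plus-strand TSS at 234 of the 447 divergent loci (52.3%, interval 47.6 to 57.1%), an interval that includes an even split.

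**Figure D2:**
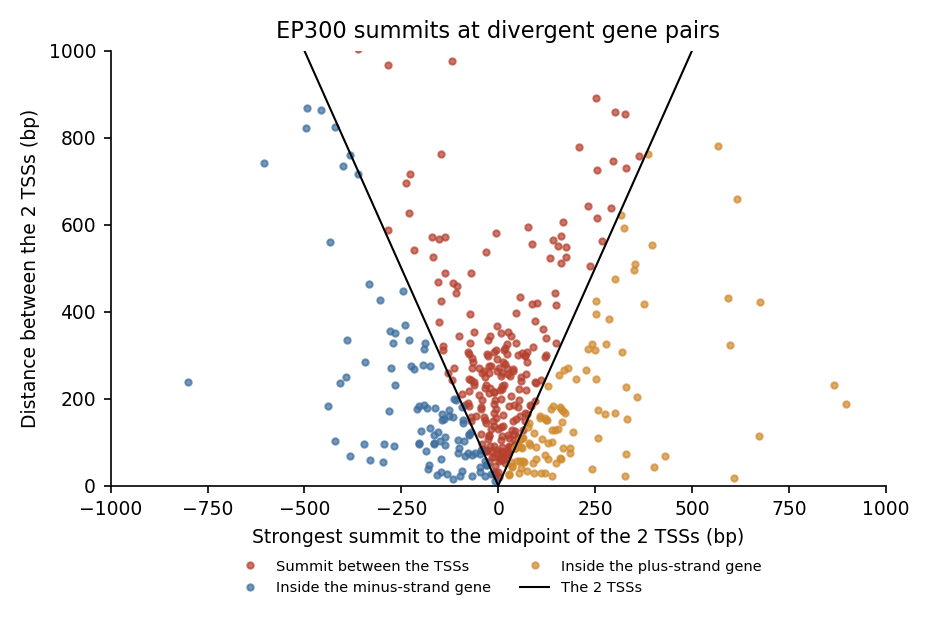
Each point is a divergent locus, with the distance between its 2 TSSs (vertical axis, bp) against the distance of its strongest summit from their midpoint (horizontal axis, bp, negative towards the minus-strand gene), for the 432 of 447 loci with TSSs at most 1000 bp apart. The lines mark the TSSs, and over all 447 loci 244 summits lie between them, 98 on the minus-strand gene's side and 105 on the plus-strand gene's side.

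Overlapping and divergent loci were compared with each other. A signal above the median of all peaks was found at 79.8% of overlapping loci (87 of 109) and 66.0% of divergent loci (295 of 447), an odds ratio of 2.04 (Fisher's exact test, adjusted p = 0.0166 over 3 tests chosen after the data were seen). That difference was smaller and did not pass in the conservative list (odds ratio 1.07) and in replicate 1 alone (1.05). The same held with 1 TSS per gene (1.19) and within 500 bp of the TSSs (1.63). It turned to 0.855 in replicate 2 alone and to 0.742 among peaks with a −log10 q of at least 2. Among CpG-rich loci alone it stayed (odds ratio 2.41, Fisher's exact test, adjusted p = 0.00817). CpG-rich windows (82.6% against 76.3%) and presence in both replicates (45.9% against 49.0%) did not pass the test, with adjusted p-values of 0.30 and 0.594.

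Seen from the genes, those in bidirectional pairs had an EP300 summit within 1 kb of a TSS more often than one-directional genes. Over all 20722 protein-coding genes of these chromosomes, 22.2% had a summit within 1 kb of a TSS. To count each pair once, plus-strand genes were compared. Of the 1210 with an opposite-strand protein-coding TSS within 1 kb, 577 held a summit (47.7%, interval 44.8 to 50.5%). Of the 8971 with none within 2 kb, 1699 did (18.9%, 18.1 to 19.8%). This is an odds ratio of 3.90 (two-sided Fisher's exact test, adjusted p = 2.07e-96).

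CpG content moved with this difference: 66.9% of the bidirectional and 36.5% of the one-directional gene starts were CpG-rich, by a GC content of at least 55% and an observed over expected CpG ratio of at least 0.6 in 1 kb. Within CpG-rich starts the shares were 51.4% (416 of 809) and 33.1% (1084 of 3273), an odds ratio of 2.14 (exact test, adjusted p = 7.48e-21). At the other starts 40.1% (161 of 401) and 10.8% (615 of 5698) held a summit. Transcription of these genes was not measured here, and its part in the difference was not tested. A summit in the DNA that a pair shares counts for both of its genes. The 1 kb around a bidirectional gene's TSSs also holds its partner's TSS, which by itself raises the share with a summit. The part of this in the difference was not tested, so the odds ratios do not compare single promoters.

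**Figure D3:**
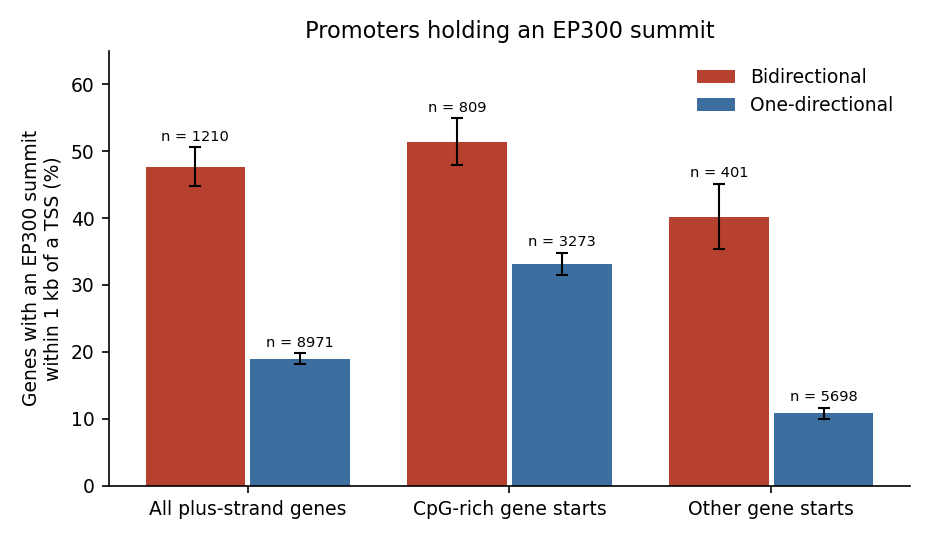
Share of plus-strand protein-coding genes with an EP300 summit within 1 kb of a TSS (vertical axis, percent, bars from 0), for bidirectional and one-directional promoters, in all genes and split by CpG content of the gene start. Error bars are 95% Clopper-Pearson intervals, and the bidirectional bar is higher in each split, 51.4% against 33.1% and 40.1% against 10.8%.

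The share of plus-strand genes with a summit within 1 kb of any of their TSSs was also set out by the arrangement of the pair, with no test. It was 48.0% at divergent pairs (459 of 957) and 46.6% at overlapping pairs (118 of 253). Among divergent pairs it was 47.7% with the TSSs 1 to 100 bp apart, 46.6% at 101 to 300 bp, 58.0% at 301 to 500 bp and 44.6% at 501 to 1000 bp. The intervals of these shares overlap, and that of the 88 genes at 301 to 500 bp runs from 47.0 to 68.4%.

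The 2 replicates did not hold these loci alike. Among the 17372 peaks of highest signal in each replicate list, a summit within 100 bp was found for 79.0% of the 556 loci in replicate 1 and 60.4% in replicate 2. In the whole replicate lists of 300000 peaks the shares were 93.0% and 78.2%. A −log10 q of at least 2 was reached at 66.9% of loci in replicate 1, 23.6% in replicate 2 and 75.4% in the optimal list. A lower share in replicate 2 was not particular to these loci. Among the leading peaks the shares were 74.9% and 57.4% at one-directional loci and 74.9% and 65.8% at distal loci. The −log10 q limit was reached at 62.7% and 20.1% of one-directional loci and 58.7% and 22.1% of distal loci. Replicate 1 was called with 2 control files and replicate 2 with 1, per the file headers, and the part of this in the difference was not tested.

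Both replicates together held 269 of the 556 loci among their leading peaks (48.4%, interval 44.2 to 52.6%), against 45.2% of one-directional loci (43.5 to 46.8%). That difference did not pass the test (odds ratio 1.14, Fisher's exact test, adjusted p = 0.157). It passed in the conservative list (odds ratio 1.26, exact test, adjusted p = 0.0214) and had the opposite direction among loci of above-median signal (0.920, adjusted p = 0.641). A matching summit stood in both whole lists at 402 loci, in replicate 1 only at 115, in replicate 2 only at 33 and in neither at 6. Over the 402 loci the replicate signals rose together across loci (Spearman's rho 0.50, Pearson's r 0.71), which share libraries and controls and are not independent. The median rank of the matching peak was 6135 in replicate 1 (517 loci) and 6357 in replicate 2 (435 loci), each among 300000 peaks.

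**Figure D4:**
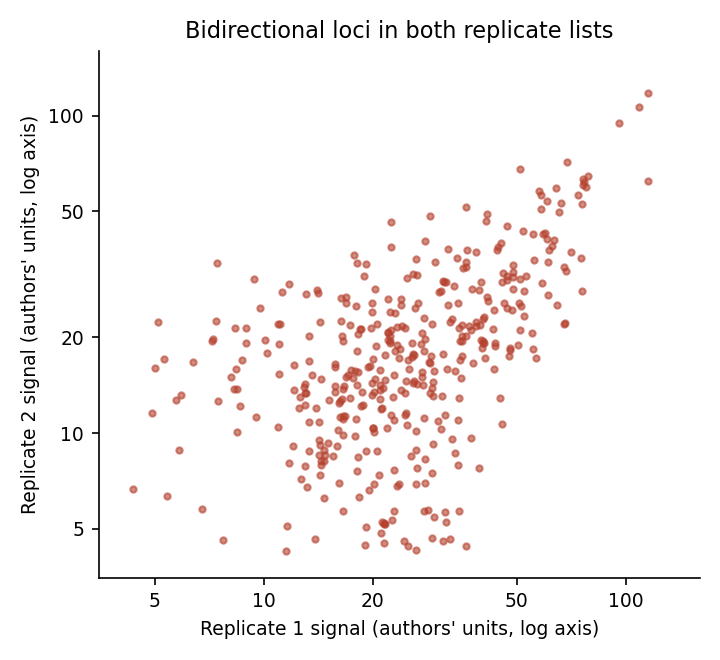
Signal in replicate 1 (horizontal, log axis) against replicate 2 (vertical, log axis), in the authors' units, for the 402 bidirectional loci with a summit within 100 bp in both replicate lists. Loci high in one replicate tend to be high in the other (Spearman's rho 0.50), and Atp5f1/Wdr77 is the highest in both (115.4 and 117.8).

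The DNA at the summits was rich in CpG. A CpG-rich 500 bp window was found at 77.5% of bidirectional loci (431 of 556, interval 73.8 to 80.9%), 65.7% of one-directional loci (2418 of 3678, 64.2 to 67.3%) and 3.24% of distal loci. The odds ratio between both promoter classes was 1.80 (Fisher's exact test, adjusted p = 3.30e-08). The median GC content was 61.4% in both promoter classes and 49.2% at distal loci. Their median observed over expected CpG ratio was 0.84 at bidirectional, 0.78 at one-directional and 0.23 at distal loci.

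Motifs were searched on both strands of the 200 bp around each strongest summit. The letters were CCGGAAGT for ETS, GCGCATGCG for NRF1, CCAAT followed by C or G and then A or G for NF-Y, GGGCGGGG for SP/KLF, TGACGTCA for CRE, AAGATGGC for YY1 and CACGTG for the USF/MYC E-box. They were CTCGCGAG for ZBTB33, ACTACAA for THAP11/ZNF143, GTTGCCA for RFX, TATAAA for the TATA box, CAGCTG for the bHLH E-box, and TGA, then C or G, then TCA for AP-1. They were AGATAAG for GATA factors, TCAAGGTCA for ERR, AGGTGTGA for the T-box and ATGCAAAT for the octamer. The TEAD motif was read as ACATTCC. The MEF2 and CArG boxes were searched by their usual patterns, and their matches can contain a TATA match. A match is a description of the letters and not a bound site.

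NF-Y was the most frequent match at bidirectional loci, in 17.1% (95 of 556), followed by SP/KLF in 15.1% (84), ETS in 11.2% (62), the bHLH E-box in 9.89% and the USF/MYC E-box in 7.55%. In the same 200 bp windows at the starts of all 20722 genes the shares were 14.3% for NF-Y, 18.98% for SP/KLF, 4.43% for ETS, 12.3% for the bHLH E-box and 5.72% for the USF/MYC E-box. No motif of the 20 was found in 203 loci, 1 in 222, 2 in 98 and 3 in 33. An ETS match stood, for example, at the summit of Atp5j/Gabpa (signal 55.8, replicates 38.5 and 22.4). Gabpa itself encodes an ETS factor known for binding promoters of mitochondrial genes, and Atp5j encodes an ATP synthase subunit. This locus was chosen after its values were seen.

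Against one-directional loci, 0 of 20 motifs passed an adjusted p of 0.05 (Fisher's exact test with Benjamini-Hochberg adjustment over 20), and 3 had an unadjusted p under 0.05. ETS came closest, at 11.2% against 7.37% (odds ratio 1.58, exact test, adjusted p = 0.0601). The octamer stood at 1.80% against 0.707% and MEF2 at 0.180% against 1.22%, both with an adjusted p of 0.167. In the conservative list 3 motifs passed: the bHLH E-box, lower at 8.23% against 13.0%, MEF2, lower at 0% (0 of 486 loci, which allows a share of up to 0.617%, taken as 3 counts of the total) against 1.27%, and the octamer, higher at 2.06% against 0.559%. In replicate 1 alone 4 passed: ETS, higher at 10.99% against 7.11%, YY1, higher at 6.59% against 3.82%, the bHLH E-box, lower at 6.91% against 12.3%, and MEF2, lower at 0% (0 of 637 loci, which by the same limit allows up to 0.471%) against 0.897%. In replicate 2 alone ETS stood at 8.56% against 6.17% (exact test, adjusted p = 0.282).

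Against distal loci, 14 of 20 motifs passed in a comparison added after the data were seen (Fisher's exact test, adjusted over 20), 8 higher and 6 lower at bidirectional loci. ETS, NF-Y, SP/KLF, NRF1, CRE, YY1, ZBTB33 and the octamer were higher. ETS was found at 0.812% of distal loci (odds ratio 15.3, exact test, adjusted p = 4.54e-40), and ZBTB33, a zinc finger factor also called Kaiso, at 4.68% of bidirectional and 0.0534% of distal loci (adjusted p = 1.45e-27). The bHLH E-box, AP-1, GATA, TEAD, MEF2 and the TATA box were lower. GATA, TEAD and MEF2 proteins are regulators of heart muscle genes. The GATA motif stood at 1.08% of bidirectional and 7.84% of distal loci (exact test, adjusted p = 5.45e-12), TEAD at 2.70% and 7.62% (3.89e-06) and MEF2 at 0.180% and 3.56% (3.05e-07). Base composition moved with these differences, since 77.5% of bidirectional and 3.24% of distal windows were CpG-rich. Among CpG-rich loci alone (431 bidirectional and 303 distal), 4 motifs passed, of which 2, ETS and ZBTB33, were among the 14. ETS stood there at 13.5% of bidirectional and 6.27% of distal loci (exact test, adjusted p = 0.0206) and ZBTB33 at 5.34% and 0.330% (0.00126). The other two were THAP11/ZNF143, at 2.32% against 0 of 303 distal loci (which allows up to 0.990%), and the USF/MYC E-box, lower at 6.96% against 12.9%. GATA turned to 0.928% against 0.660% and did not pass, nor did TEAD at 2.55% against 3.63% or MEF2 at 0.232% against 1.65%. SP/KLF (17.6% against 20.8%), CRE (3.02% against 3.96%) and the octamer (0.464% against 0.660%) turned lower at bidirectional loci. The TATA box turned higher (3.02% against 2.31%). None of these passed. NF-Y, NRF1 and YY1 stayed higher and the bHLH E-box and AP-1 stayed lower, also without passing. With 303 distal loci this comparison is smaller, so a missed threshold does not show that the shares are equal. Promoters of non-coding genes can be among these 303 loci.

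**Figure D5:**
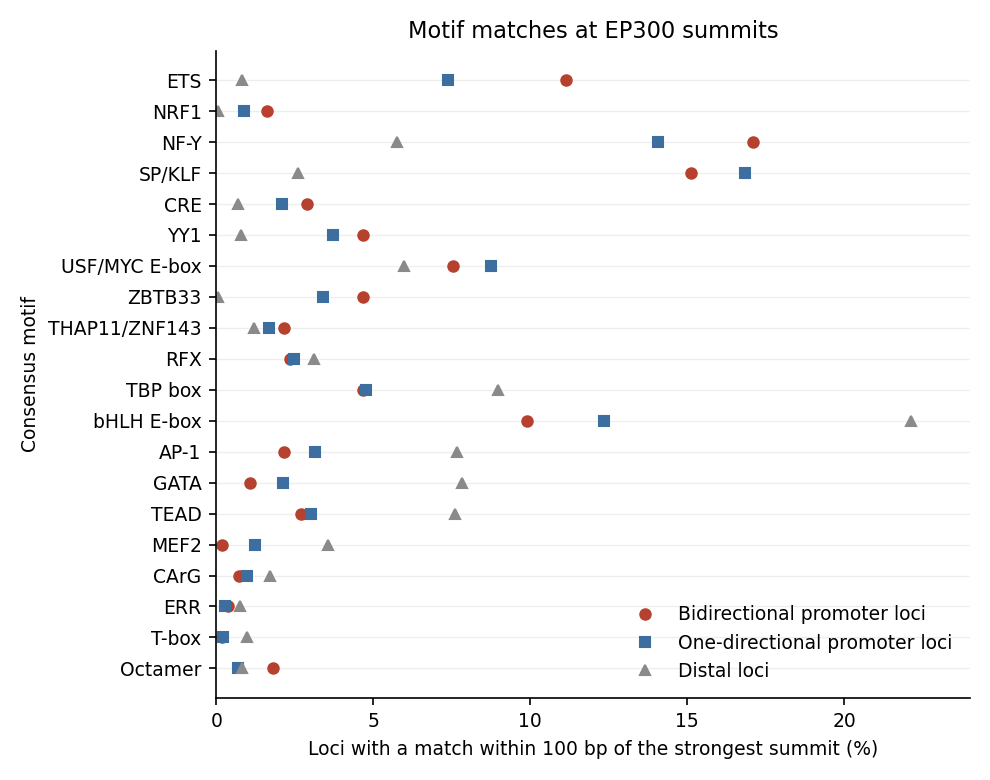
Share of loci (horizontal axis, percent) with a match to each of 20 consensus motifs within 100 bp of the strongest summit, at 556 bidirectional, 3678 one-directional and 9362 distal loci. The bidirectional and one-directional points lie near each other, and the distal points lie apart for ETS (11.2, 7.37 and 0.812%), GATA (1.08, 2.12 and 7.84%) and the bHLH E-box (9.89, 12.3 and 22.1%).

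Bidirectional pairs were also compared by whether the plus-strand gene had a called summit within 1 kb of any of its TSSs (occupied) or not. The motifs were searched in the 200 bp around the midpoint of the closest TSS pair, in tests added after the data were seen. A summit at another TSS of the gene also counts, so an occupied pair need not hold a summit at that midpoint. Of 21 tests (20 motifs and a CpG-rich 500 bp window), 0 passed after adjustment over the 21 and 3 had an unadjusted p under 0.05. ZBTB33 stood at 3.47% of the 577 occupied and 1.26% of the 633 unoccupied pairs, the octamer at 1.21% and 0.158%, and CpG-rich windows at 78.7% and 73.0%. In replicate 1 alone the CpG-rich share passed, at 79.5% against 71.0% (exact test, adjusted p = 0.0154). ETS stood at 11.4% and 8.37%.

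Gene lists described part of the 1117 genes at member loci, and genes outside the lists were not counted by function. Of all protein-coding genes, 11.7% were in a bidirectional pair (TSSs within 1 kb), 5.39% stood at a member locus and 22.2% held a summit at any promoter. Pairs up to 2 kb apart can share a member summit, so a member gene need not be in a pair so defined. The counts below are descriptions beside those shares, with no test. A list with more genes in pairs has more genes that can stand at a member locus. Over all genes, 1154 of 2425 in pairs and 3444 of the 18297 others held a summit. For mitochondrial ribosomal proteins these counts were 19 of 33 and 26 of 45. For the respiratory chain and ATP synthase they were 20 of 33 and 34 of 58, and for RNA polymerase II, Mediator and TAFs 12 of 19 and 25 of 59.

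Among the 78 mitochondrial ribosomal protein genes, 33 were in a bidirectional pair and 20 stood at a member locus (25.6%). The strongest of them were Mrps5, at Zfp661/Mrps5 with a signal of 108.1 (replicates 70.7 and 37.2), and Mrps18b, at Mrps18b/Ppp1r10 with 106.1 (65.3 and 49.5). Mrpl46 and Mrps11, proteins of the large and the small subunit, shared 1 locus with 30 bp between their TSSs and a signal of 55.3 (27.8 and 23.1). The weakest was Mrpl44, with 24.7 (13.1 and 13.4). Of the 91 genes of the respiratory chain and ATP synthase, 33 were in a pair and 20 at member loci (22.0%). After Atp5f1 and Ndufaf8, given above, these ranged down to Atp5c1 with a signal of 19.8. Rps28/Ndufa7 joins a cytosolic ribosomal protein and a complex I subunit over 10 bp, the shortest divergent distance, and had 86.0 (51.1 and 30.6). For mitochondrial import, 8 of 26 genes were in a pair and 3 at member loci, led by Timm9 at 25.8 (14.6 and 6.26) and Timm29 at 19.1, which had no replicate 1 summit within 100 bp and 12.4 in replicate 2.

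Of the 75 cytosolic ribosomal protein genes, 57 held a summit, 15 were in a bidirectional pair (20%) and 11 stood at a member locus (14.7%). Rpl4, at Zwilch/Rpl4, had 86.5 (48.8 and 31.0), and Rps28 is given above. Of the 37 tRNA synthetase genes listed, 36 were matched, 10 were in a pair and 5 at member loci. The strongest of these were Fars2 (76.5, replicates 51.0 and 21.1) and Yars (59.8, replicates 32.7 and 22.3). The proteasome list had 10 of 47 genes in pairs and 6 at member loci. It was led by the assembly chaperone Psmg2 (99.8, replicates 67.9 and 22.3) and the activator subunit Psme2 (48.4, replicates 18.1 and 34.2).

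Chaperonins and heat-shock proteins had 12 of 31 matched genes in pairs and 10 at member loci (32.3%). Hsp90b1, the HSP90 of the endoplasmic reticulum, had 87.7 (60.9 and 34.5). Cct5, a subunit of the cytosolic chaperonin, had 66.1, with 30.9 in replicate 1 and no summit within 100 bp in replicate 2. The small heat-shock genes Hspb2 and Cryab, both known as abundant in heart muscle, shared a locus with 639 bp between their TSSs and a signal of 36.7 (14.3 and 22.3). Unlike most member loci its 500 bp window was not CpG-rich, with an observed over expected CpG ratio of 0.14. The pair was named after its values were seen.

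Histone genes had 27 of 79 in pairs and 19 at member loci (24.1%). Most of these are pairs of an H2A and an H2B gene, led by Hist1h2bf/Hist1h2ad with 69.1 (36.2 and 33.4). Histone genes are near-identical copies, so reads can be split between them in ways the files do not show, and their values are uncertain. For DNA repair, 27 of 67 matched genes were in pairs, 11 of these held a summit, and 11 stood at member loci. Xrcc3, of homologous recombination, had 66.5 (51.5 and 25.1), and Xpc, the damage sensor of nucleotide excision repair, had 62.6 (38.5 and 21.7).

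The spliceosome list had 20 of 65 genes in pairs and 11 at member loci, led by Sf3b3 (92.1, replicates 41.4 and 49.1) and Srsf7 (69.8, replicates 41.4 and 26.7). RNA polymerase II, Mediator and TAF genes had 19 of 78 in pairs and 11 at member loci. After Taf6, given above, Med22 had 74.7 at Med22/Rpl7a, with 46.4 in replicate 1 and no summit within 100 bp in replicate 2. Cyclins and CDKs had 4 of 42 in pairs and 3 at member loci, led by Ccnk (54.8, replicates 34.5 and 25.7) and Cdk5 (37.9, with 11.8 in replicate 1 and none in replicate 2). Histone acetyltransferases and deacetylases had 5 of 29 in pairs and 3 at member loci, all sirtuins, led by Sirt6 (62.9, replicates 40.7 and 17.3) and Sirt2 (29.9, replicates 21.6 and 5.18).

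Genes of the heart and its vessels had these counts, beside 11.7% of all genes in a pair and 5.39% at a member locus. None of the 27 cardiac transcription factor genes was in a bidirectional pair or at a member locus, while 15 held a summit at a promoter of another kind. Calcium handling and channels had 1 of 24 in a pair and 0 at a member locus, with 12 occupied elsewhere. The endothelium list had 1 of 28 in a pair and 0 at a member locus, with 12 occupied. In lists this small with 0 or 1 gene in a pair, a count of 0 at member loci says little about EP300. Sarcomere genes had 3 of 30 in pairs and 2 at member loci (6.67%, near the share of all genes), and 22 held a summit somewhere. These 2 were Myom1, the M-band protein myomesin, at Myl12a/Myom1 with 64.1 (28.8 and 16.7), and Myl4, an atrial myosin light chain, at Cdc27/Myl4 with 10.3, absent from replicate 1 within 100 bp and at 9.88 in replicate 2.

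Fatty acid oxidation had 4 of 32 genes in pairs and 3 at member loci: Hadha and Hadhb, which share a locus, and Fabp3. The Hadha/Hadhb promoter had a signal of 80.6 (replicates 47.0 and 30.3), with its summit 57 bp inside Hadha. Fabp3, the heart fatty acid binding protein, had 38.9 (21.04 and 11.9), opposite a gene model named Gm10570. As a check on the tissue, 0 of 23 matched liver genes and 1 of 23 matched neuron genes held a summit. Of either list 0 stood at a member locus, but only 1 liver gene and 0 neuron genes were in a pair. That count is therefore no check on the member peaks.

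Of the 13 textbook head-to-head pairs reported here, written in their usual order, 6 were members and 7 were not. Beside this, 47.7% of all plus-strand genes in bidirectional pairs (577 of 1210) held a summit, which asks less than membership. The count of textbook pairs is therefore no result about these pairs. Hspd1/Hspe1, the mitochondrial chaperonin and its co-chaperonin, had a signal of 27.1 (replicates 13.0 and 14.3). Prkdc/Mcm4, a DNA repair kinase and a replication helicase subunit, had the highest of the 6, 37.6 (18.2 and 20.5). These loci were in the middle and lower ranks of the 556, from 289th for Prkdc/Mcm4 to 447th for Mrps12/Sars2. Gart/Son, a purine enzyme and a splicing cofactor, had 34.0 (16.6 and 11.4), and Ppat/Paics, both enzymes of purine synthesis, had 30.8 (12.9 and 14.0). Sirt3/Psmd13 had 28.8 and Mrps12/Sars2 had 26.3, with 19.8 and 25.2 in replicate 1 and no summit within 100 bp in replicate 2.

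The 7 textbook pairs without a member peak were Surf1/Surf2, Atm/Npat, Brca1/Nbr1, Tap1/Psmb9, Pdcd10/Serpini1, Tsc2/Nthl1 and Col4a1/Col4a2. Of these, 6 had no optimal peak within 1 kb of any TSS of either gene. At Col4a1/Col4a2, which encode both chains of a basement membrane collagen from TSSs 21 bp apart, Col4a1 had 2 peaks within 1 kb of its own TSSs and Col4a2 had 0. A peak missing from the list was not called at this depth, which is not the same as absence of EP300.

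At the limit of 1 kb, the members farthest from their farther TSS were Atp6v1a/Naa50 (991 bp, signal 19.5) and Brd2/H2-DMa (983 bp, 19.8). Just outside lay 4930442H23Rik/Dapk3 (1008 bp, 59.3), Yjefn3/Tssk6 (1012 bp, 8.14) and Scaf1/Rras (1037 bp, 56.6).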

How the data were processed

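Peak lists of EP300 ChIP-seq from 2 replicates of newborn mouse heart were used. Per the file headers, the authors called peaks on each replicate (2 control files for replicate 1, 1 for replicate 2) and on both pooled, and took an optimal (17372 peaks) and a conservative list (15628 peaks) by the irreproducible discovery rate. Each deposited peak has a signal, a value of the authors whose formula is not stated in the sources used here, and the authors' deposited −log10 q. Aligner, peak caller and thresholds were not given in the sources used here. The depth is unknown.

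Coordinates are mm10 (GRCm38), with GENCODE M21 protein-coding transcripts (52065 TSSs of 20722 genes) and the RefSeq GRCm38 sequence. CpG-rich means a GC content of at least 55% and an observed over expected CpG ratio of at least 0.6, in 500 bp at summits and 1 kb at gene starts. Shares were compared by Fisher's exact test (SciPy 1.17.1, Python 3.11.15), with Benjamini-Hochberg adjustment within each family, and the code was tested on simulated data. Named are the 10 loci of highest signal, 15 textbook pairs, and 2 members of highest signal per gene list for 20 lists, and the text says where others were added. A few loci and pairs these rules name are not reported here. Sequences were named by signal too. The members, lists and motifs were chosen with earlier results of these data known. Alternatives were the conservative list, each replicate alone, 1 TSS per gene, 500 bp, and −log10 q of at least 2, plus others named with their values.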

Additional observations from a re-analysis of the deposited data

How the results depend on the processing

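The occupancy odds ratio kept its direction and side of the threshold under all 9 alternatives (2.14 to 4.32, adjusted p from 5.97e-117 to 7.48e-21 by Fisher's exact test), as did the CpG-rich odds ratio under its 6 (1.505 to 1.84). The odds ratio of above-median signal did so under 7 of 8 and was 1.28, past no threshold, in CpG-rich loci (adjusted p over the 8 from 4.14e-04 to 0.0622, exact test). That of presence in both replicates was 1.26 and past the threshold in the conservative list and 0.920 in above-median loci (adjusted p over 9 alternatives from 0.0214 to 0.871, exact test). Motifs past the threshold against one-directional loci numbered 3 in the conservative list and 0 to 4 with 1 replicate left out, and those between occupied and unoccupied pairs 0 to 1. Against distal loci they numbered 4 among CpG-rich loci and 12 to 15 under the 7 other alternatives. Member peaks numbered 469 with a −log10 q of at least 2, and the share of summits between divergent TSSs was then 58.1%, against 36.9% with 1 TSS per gene. The odds ratio of overlapping against divergent loci was 1.07 in the conservative list, 0.855 to 1.05 with 1 replicate left out and 1.19 with 1 TSS per gene. It was 1.63 at 500 bp, 0.742 with a −log10 q of at least 2, 0.851 for the highest quintile and 2.41 in CpG-rich loci. The cause was not tested. The tests added after the data were seen are those on motifs against distal loci, occupied against unoccupied pairs and overlapping against divergent loci, and 4 alternatives of the replicate comparison. No paired analysis was possible because both samples belong to 1 group.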

Other observations

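Bidirectional loci with more than 1 member peak had summits 199 to 977 bp apart (188 gaps, median 222 bp). The pair with the most signal over 3 such peaks, chosen after its values were seen, was Tbc1d17/Akt1s1, with a summed signal of 164.7 and 65.5 in its strongest peak. Akt1s1 encodes PRAS40, an inhibitor of the growth kinase complex mTORC1. The loci lay on all 19 chromosomes examined, with the highest counts on chromosomes 7 (57 of 556 loci) and 11 (54 loci). Genes and gene pairs per chromosome were not counted, so these numbers do not show a preference for a chromosome.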
